A study of Homo sapiens with 6 samples.

Results

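The genes described here encode the enzymes that build, interconvert and recycle purine and pyrimidine nucleotides. The set holds 37 genes, chosen by name from the pathway but with earlier results of these data known. They fall into 4 classes: 13 of de novo purine synthesis, 8 of de novo pyrimidine synthesis with the nucleotide steps that follow it, 3 subunits of ribonucleotide reductase, and 13 of salvage, nucleoside breakdown and nucleotide kinases. Of the 37 genes, 36 had a probe above background, among 12871 such genes on the array. ADSS2, an adenylosuccinate synthase, had no probe that matched its symbol and is named only. mRNA was measured in the high-grade serous ovarian cancer line PEO4, on 6 Illumina HumanHT-12 V4.0 arrays. Cells carried, from a lentivirus and after puromycin selection, a non-silencing (NS) shRNA, the SHMT1 shRNA F11 or the SHMT1 shRNA F12, with 2 arrays in each group. All cells were grown in RPMI with fetal bovine serum, and the NS cells went through the same infection and selection as the others. The comparison asks how the mRNA of these enzymes differed when SHMT1 was targeted.

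Cells make purines by assembling the ring step by step on a ribose phosphate, and they make pyrimidines by building the ring before the sugar is attached. Ribonucleotide reductase then turns ribonucleotides into the deoxynucleotides used for DNA, and salvage enzymes recover bases and nucleosides that would otherwise be lost. SHMT1, the cytosolic serine hydroxymethyltransferase, passes a carbon from serine to tetrahydrofolate, and folate-bound carbons are used at both formyl transfers of purine synthesis (GART and ATIC) and in the methylation of dUMP to dTMP by thymidylate synthase.

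SHMT1 itself read 542 and 544 on the NS arrays, 291 and 342 with F11, and 434 and 442 with F12. The groups did not overlap, and F11 was the lowest, F12 next and NS the highest. In limma, with p-values adjusted by the Benjamini-Hochberg method over all tested probes, SHMT1 fell by 0.78 on the log2 scale with F11 (adjusted p = 0.00535), while its value of -0.31 with F12 had an adjusted p of 0.213, and the shRNAs differed by 0.47 (adjusted p = 0.0197). The F12 value therefore did not pass the threshold of 0.05 after adjustment over all tested probes. Its own 95% interval, which is not adjusted for the number of probes, was -0.50 to -0.12 and lay wholly on the lower side. F12 comparisons thus concern cells in which SHMT1 mRNA read lower than with NS, but in which the fall was not called by the adjusted test. These values are of the brightest SHMT1 probe. With the mean of its tested probes, the F11 value was -0.37 (adjusted p = 0.009) and the averaged value -0.25 (adjusted p = 0.0569). The fall averaged over both shRNAs, -0.55, had an adjusted p of 0.0263, which rose to between 0.173 and 0.291 when NS 1, NS 2, F12 1 or F12 2 was left out. The fall with F11 had an adjusted p of 0.0544 without NS 1 and 0.0586 without NS 2, and the difference between the shRNAs 0.141 without F12 1 and 0.157 without F12 2. Replicate arrays correlated at 0.994 to 0.997, and arrays of different groups at 0.988 to 0.995. All 10 markers of Mullerian and serous epithelium were above background, and some of them moved. KRT7 was lower on average (-0.42, adjusted p = 0.0263) and, with KRT8, lower with F11 (-0.59 and -0.61, adjusted p = 0.00556 and 0.0141), MUC16 was lower with F12 (-0.55, adjusted p = 0.0198), and 4 of 10 differed between F12 and F11, KRT7, KRT8 and CDH1 higher and MUC16 lower with F12. Their part in the results was not tested. None of the 5 endothelial markers was. Of 6 leukocyte markers CD14 (139 to 232) and CD68 (295 to 462) were above background, CD14 being lower with F12 (-0.59, adjusted p = 0.0358), whereas PTPRC, CD3E and LYZ lay between 80.7 and 90.9, and the 4 of 6 fibroblast markers that were tested lay between 79.3 and 115. The labels do not say whether the arrays of a group came from separate cultures, and p-values then reflect no more than the scatter of these 6 arrays, which may be technical.

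The region before the transcription start is shown for the 3 genes that passed the test in a comparison, UPP1, ADSS1 and ADA, and for the stretch that PPAT and PAICS share, since in the promoter table used these neighbouring genes of purine synthesis are read in opposite directions from starts with 136 bases between them. Each sequence is from RefSeq on GRCh38.p14, is written 5′ to 3′ on the strand named, and holds the bases next to the 1 start that the table gives for each gene. Capitals mark the GC box GGGCGG on either strand, the sequence bound by Sp1 family factors. Overlapping copies run together.
UPP1, chr7:48089004-48089253, plus strand: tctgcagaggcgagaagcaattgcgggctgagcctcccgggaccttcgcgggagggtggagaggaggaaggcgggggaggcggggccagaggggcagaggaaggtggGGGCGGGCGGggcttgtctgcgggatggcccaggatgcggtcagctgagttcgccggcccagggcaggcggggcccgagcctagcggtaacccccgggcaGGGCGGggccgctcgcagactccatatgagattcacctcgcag
ADSS1, chr14:104723979-104724228, plus strand: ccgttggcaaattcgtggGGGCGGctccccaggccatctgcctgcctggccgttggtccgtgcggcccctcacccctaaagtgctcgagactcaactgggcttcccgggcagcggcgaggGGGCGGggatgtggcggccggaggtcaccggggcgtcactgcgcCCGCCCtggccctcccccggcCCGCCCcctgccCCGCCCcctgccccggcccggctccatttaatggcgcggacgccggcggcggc
ADA, chr20:44651700-44651949, minus strand: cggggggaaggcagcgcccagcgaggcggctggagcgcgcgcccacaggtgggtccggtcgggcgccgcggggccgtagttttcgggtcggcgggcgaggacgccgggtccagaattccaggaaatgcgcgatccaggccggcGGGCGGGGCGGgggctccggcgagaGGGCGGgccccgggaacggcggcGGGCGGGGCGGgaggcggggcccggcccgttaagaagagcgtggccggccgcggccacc
PPAT and PAICS, chr4:56435616-56435751, plus strand: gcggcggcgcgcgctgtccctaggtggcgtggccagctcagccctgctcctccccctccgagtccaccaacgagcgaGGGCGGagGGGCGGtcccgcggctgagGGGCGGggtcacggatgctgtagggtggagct
The window of UPP1 held 3 GC boxes, those of ADSS1 and ADA held 5 each, and the stretch between PPAT and PAICS held 3. The annotated spans of UPP1 and PAICS begin upstream of the starts used, that of PAICS inside PPAT, so these sequences do not lie before every transcript of those genes. Windows from 250 bases before to 50 after the start were given for 34 of the 37 genes. A GC box was in 30 of these 34 (88.2%) and in 48.3% of 27305 genes. The E-box CACGTG, the site of MYC and related factors, was in 6 of 34 (17.6%), in PPAT, PAICS, ATIC, DHODH, DCK and NME1, against 8.77% of all genes, and the E2F motif TTTGGCGC or TTTCGCGC, on either strand, was in 3 (8.82%), in GART, DUT and DCK, against 1.4%. The windows of PPAT and PAICS overlap, so 1 site can count for both genes. The stretch printed between their starts held 0 copies of CACGTG. These are matches of letters in a fixed window, and no binding was measured. The shares of all genes are over 27305 genes, not over the 12871 with a probe above background. They therefore do not set the members against genes expressed in these cells.

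The mRNA of nucleotide enzymes was close to the NS level with either SHMT1 shRNA. Averaged over both shRNAs, 1 of the 36 genes was lower and 0 were higher by limma's adjusted p, while 0.645% of all genes tested were called in this comparison (0.435% lower and 0.21% higher). The gene that fell was UPP1, uridine phosphorylase, which splits uridine into uracil and ribose phosphate. The median log2 fold change of the 36 genes was 0.03, beside 0.01 over all genes, 33 of them lay within 0.2 of 0, and the extremes were UPP1 at -0.36 and IMPDH2 at 0.31. At an unadjusted p under 0.05 there were 5 of 36 (13.9%), against 12.7% of all genes. UPP1, ADSL and ADK were the 3 on the lower side, where 5.76% of all genes were, and IMPDH2 and RRM2 the 2 on the higher side, where 6.9% were. The SHMT1 shRNA arrays did not overlap the NS arrays at 4 of 36 genes (11.1%, against 15.6% of all genes), which were IMPDH2 above NS and UPP1, ADSL and CMPK1 below it.

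With F11, UPP1 was again the gene called, 1 of 36, where 3.58% of all genes were called (1.76% lower and 1.83% higher). With F12, 0 of 36 were called and 0.847% of all genes (0.544% lower and 0.303% higher). At an unadjusted p under 0.05, 10 of 36 passed with F11 (27.8%, against 19% of all genes) and 5 of 36 with F12 (13.9%, against 13.5%). Of the 10 with F11, 8 had values above NS (against 10.6% of all genes), namely PRPS1, GART, ATIC, IMPDH2 and ADSS1 of purine synthesis with CAD, RRM1 and ADA, and ADK and UPP1 had values below it (against 8.38%). Of the 5 with F12, IMPDH2, RRM2 and TK1 were above NS (against 6.95%) and ADSL and UPP1 below it (against 6.53%). None of these but UPP1 passed after adjustment in either comparison, and UPP1 did so only with F11. The medians over the 36 genes were 0.02 with F11 and 0.01 with F12, beside 0.01 and 0.00 over all genes. The F11 and F12 comparisons use the same NS arrays, so the values of a gene in both are set side by side and are not independent.

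**Figure D1:**
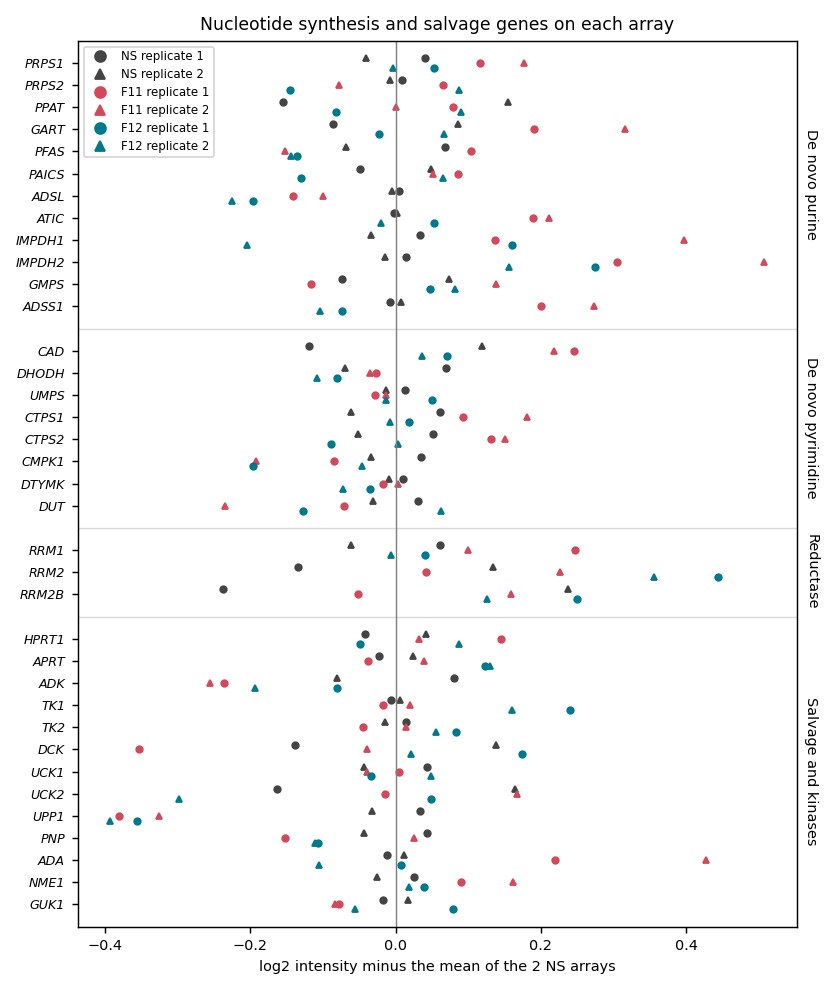
Each point is a gene on 1 array, plotted as its log2 intensity minus the mean of the 2 NS arrays (horizontal axis), with genes on the vertical axis by class and circles and triangles for replicates 1 and 2. UPP1 is the gene whose 4 SHMT1 shRNA arrays lie farthest below both NS arrays, whereas the F11 arrays of ADSS1 and ADA lie to the right of all their other arrays.

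The 95% intervals show how large a change the scatter of these 6 arrays left possible for each gene. That scatter may be technical, so the intervals do not bound changes between separate cultures. Each interval holds for its own gene and not for all genes jointly. The 95% interval of the averaged log2 fold change lay within 0.58, or 1.5-fold, in either direction for 36 of 36 genes, and for 12716 of all 12871. It did so for 35 of 36 with F11, where the interval of IMPDH2 reached 0.60, and for 35 of 36 with F12, where that of RRM2 reached 0.64. Between F12 and F11 it did so for 34 of 36, the others being IMPDH1 (down to -0.59) and DCK (up to 0.59). The deposited intensities include a background of about 85.5, which draws the fold changes of dim probes towards 0. After a normexp correction of the background the counts were 34 of 36 for the average, 32 for F11, 33 for F12 and 29 for F12 against F11, and the extremes of the averaged comparison were UPP1 at -0.47 and RRM2 at 0.34. DHODH, DTYMK, TK2 and UCK1 had mean intensities under 1.3 times the background mode, so their values carry the least information. All but DTYMK were above the background threshold on all 6 arrays.

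In de novo purine synthesis 12 of 13 genes were measured and 0 passed the test against NS in the averaged comparison, with F11 or with F12. At an unadjusted p under 0.05 there were 2 (ADSL and IMPDH2), 5 (PRPS1, GART, ATIC, IMPDH2 and ADSS1) and 2 (ADSL and IMPDH2) of 12 in these comparisons, or 16.7%, 41.7% and 16.7%, beside 12.7%, 19% and 13.5% of all genes. The median log2 fold change of the class was 0.06 on average, 0.11 with F11 and -0.01 with F12. Among the 12 genes, 9 had an averaged value above 0, where 52.6% of all genes did.

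IMPDH2, the inosine monophosphate dehydrogenase at the entry to guanine nucleotide synthesis, had the lowest adjusted p of this class in the averaged comparison. It read 1729.7 and 1696 on the NS arrays, 2116 and 2435 with F11, and 2072 and 1909 with F12. The SHMT1 shRNA arrays were all above NS, as were those of 8.34% of all genes. The log2 fold change was 0.31 on average (standard error 0.0705, adjusted p = 0.167), 0.41 with F11 (95% interval 0.22 to 0.60, adjusted p = 0.0532) and 0.22 with F12 (0.02 to 0.41, adjusted p = 0.382), so it passed the threshold in none of these. The averaged value passed when F11 replicate 1 was left out (0.36, adjusted p = 0.042). IMPDH1, the other isoform, read 394 and 376 with NS, 423 and 507 with F11, and 430.2 and 334 with F12, a spread between replicates that leaves its averaged value of 0.12 with an interval on both sides of 0.

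None of the genes of the ring-building steps passed the test against NS. PRPS1, which makes the activated ribose phosphate, read 332 and 314 with NS, 350.1 and 365 with F11, and 335 and 322 with F12. PPAT, the amidotransferase of the committed step, read 421 and 522, then 495 and 469, then 443 and 499, and its averaged log2 fold change was 0.02. PAICS, which shares its start region with PPAT, also had an averaged value of 0.02. The NS arrays of PPAT spanned all 4 SHMT1 shRNA arrays. GART, which carries out the first formyl transfer, read 917 and 1033 with NS, 1110.4 and 1211 with F11, and 958 and 1019 with F12. ATIC, which carries out the other formyl transfer and closes the ring, read 2128 and 2134 with NS, 2430.5 and 2468 with F11, and 2211 and 2100.5 with F12. In both genes of the folate-dependent steps the F11 arrays lay above all NS and F12 arrays. The same order held at PRPS1, IMPDH2, ADSS1, CAD, CTPS1, CTPS2, RRM1, ADA and NME1, so it was not particular to these steps. Its share over all genes was not counted. Set against NS alone, a looser order, F11 lay above at 13 of 36 genes (36.1%) and at 24.4% of all genes. Log2 fold changes against NS with F11 were 0.25 (adjusted p = 0.186) for GART and 0.20 (adjusted p = 0.14) for ATIC. With F12 they were 0.02 each, and none of these passed the test. The dimmer GART probes, with means of 384 and 91.8, had 0.14 and 0.03 with F11. ADSL, adenylosuccinate lyase, read 1129.8 and 1122 with NS, 1020.4 and 1051 with F11, and 983 and 963 with F12. Its SHMT1 shRNA arrays were all below both NS arrays, where 7.3% of all genes had this order, and the averaged value of -0.17 had an adjusted p of 0.278. PRPS2, PFAS and GMPS had averaged values of -0.02, -0.08 and 0.04, and the replicates of at least 1 group overlapped those of NS in each.

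ADSS1, the muscle-type adenylosuccinate synthase at the entry to AMP synthesis, read 201 and 203 with NS, 232 and 244 with F11, and 192 and 188 with F12. The F11 arrays lay above NS and the F12 arrays below it. Neither difference from NS passed the test. The F11 value was 0.24, at an adjusted p of 0.0939, and the F12 value -0.09, at 0.624. F12 was below F11 by 0.33 on the log2 scale (difference -0.33, standard error 0.057, 95% interval -0.46 to -0.19, adjusted p = 0.0212). The adjusted p was 0.141 without F12 replicate 1 and 0.166 without F12 replicate 2. A dimmer probe of the gene, near background with a mean of 90.6, showed a difference of -0.02, and with the mean of both probes the difference was -0.17 (adjusted p = 0.083).

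In de novo pyrimidine synthesis and its following steps, 0 of 8 genes passed the test in any comparison. At an unadjusted p under 0.05 there were 0 on average (beside 12.7% of all genes) and 0 with F12 (beside 13.5%). There was 1 with F11 (CAD, 12.5% beside 19%) and 1 between F12 and F11 (CTPS2, 12.5% beside 24.2%). The class median was -0.02 on average, -0.02 with F11 and -0.04 with F12. CAD, the fused enzyme of the opening steps, read 254 and 299.7 with NS, 327 and 321 with F11, and 289.7 and 283 with F12, so that its F11 arrays lay above the others while the NS arrays held the F12 arrays between them. Its log2 fold change with F11 was 0.23 (95% interval 0.04 to 0.43, adjusted p = 0.237). CMPK1, the UMP and CMP kinase, had the lowest adjusted p of the class on average. It read 365 and 348 with NS, 336 and 312 with F11, and 311 and 345 with F12, with all 4 SHMT1 shRNA arrays below both NS arrays and -0.13 on average (standard error 0.0646, adjusted p = 0.568). CTPS1, the CTP synthase of dividing cells, and its isoform CTPS2 both had log2 fold changes of 0.14 with F11, and of 0.00 and -0.04 with F12. DUT, the dUTPase that supplies dUMP, read 422 and 404 with NS, 393 and 351 with F11, and 378 and 431 with F12. UMPS, which makes UMP, stayed between 109.8 and 116 on all arrays, with a mean only 1.31 times the background mode. DHODH, the mitochondrial dehydrogenase of the pathway, lay between 91.9 and 104, and DTYMK, thymidylate kinase, between 91.4 and 96.8, both near background.

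Ribonucleotide reductase, which supplies the deoxynucleotides used for DNA, has 3 subunits in this set. None of the 3 passed the test in a comparison. At an unadjusted p under 0.05 there was 1 of 3 (33.3%) in each, RRM2 on average, with F12 and between F12 and F11, and RRM1 with F11. The shares of all genes were 12.7% on average, 13.5% with F12, 24.2% between F12 and F11 and 19% with F11. With 3 genes such a count says little about the class. RRM2, the small subunit made in S phase, read 239.8 and 289 with NS, 271 and 308 with F11, and 358 and 337 with F12. Its F12 arrays lay above all others, and its NS and F11 arrays overlapped. The log2 fold change was 0.27 on average (standard error 0.089, adjusted p = 0.359) and 0.40 with F12 (95% interval 0.16 to 0.64, adjusted p = 0.212). The averaged value depended on the NS arrays, at 0.13 without NS replicate 1 and 0.40 without NS replicate 2. RRM1, the large catalytic subunit, read 1173 and 1078 with NS, 1334 and 1205 with F11, and 1157 and 1120.0 with F12, and so was high with F11 rather than F12. RRM2B, the small subunit induced by p53, read 174 and 242 with NS, 198 and 229 with F11, and 244 and 224 with F12, and its NS replicates differed by 0.47 on the log2 scale, the widest gap between replicates among the 36 genes.

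TK1, the thymidine kinase of the cytosol, which also peaks in S phase, followed the order of RRM2. It read 1696 and 1709.9 with NS, 1683 and 1726 with F11, and 2012 and 1903 with F12, with a log2 fold change of 0.20 with F12 (95% interval 0.07 to 0.34, adjusted p = 0.257) that did not pass. TYMS, thymidylate synthase, is no member of the set but uses the folate-bound carbon directly. It read 838 and 852 with NS, 808 and 886 with F11, and 864 and 803 with F12, an averaged log2 fold change of -0.01. Beside these genes, 17 of 18 S phase and proliferation genes were measured, and 0 passed the test in any of the comparisons. At an unadjusted p under 0.05, 4 of 17 were higher and 0 lower on average (23.5% higher, beside 6.9% of all genes), 5 were higher with F11 (29.4%, beside 10.6%), 2 were higher with F12 (11.8%, beside 6.95%), and 2 were higher and 2 lower between F12 and F11 (11.8% each, beside 11.1% and 13.1%). Their median log2 fold change was 0.07 on average, 0.07 with F11 and 0.04 with F12. Their part in the values of RRM2 and TK1 was not tested.

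All 13 genes of salvage, nucleoside breakdown and nucleotide kinases were measured, and UPP1 was the gene that passed against NS. It read 313 and 299 with NS, 235 and 244 with F11, and 239 and 233 with F12. The 4 SHMT1 shRNA arrays lay between 233 and 244, below both NS arrays, and the groups of F11 and F12 overlapped. The NS mean was 306 ± 10.2 (SD, n = 2 arrays), and the means of F11 and F12 were 239 ± 6.43 and 236 ± 4.2, each of 2 arrays, so the averaged SHMT1 shRNA level was 77.8% of NS. UPP1 averaged -0.36 on the log2 scale (standard error 0.0505, 95% interval -0.48 to -0.24, adjusted p = 0.0357). The value was -0.35 for F11, with an adjusted p of 0.0269, and -0.37 for F12, with 0.0507. The value with F12 was as large as that with F11 and fell just outside the threshold, and the difference between the shRNAs was -0.02 (95% interval -0.16 to 0.12). Without NS replicate 1 or 2, or F12 replicate 1 or 2, the averaged value did not pass, with log2 fold changes from -0.33 to -0.40. The F11 value did not pass without either NS array, F11 replicate 1 or either F12 array. The F12 value passed without either F11 array. These fits leave 1 array in a group and hold fewer degrees of freedom. A lost call there is not by itself a dependence on that array. After normexp background correction neither the averaged nor the F11 value passed (-0.47 on average, adjusted p = 0.0738, and -0.46 with F11, adjusted p = 0.0733). Neither passed with the replicate number as a block. With the F11 and F12 arrays pooled as 1 group the averaged value did not pass either (adjusted p = 0.122). A second UPP1 probe, with a mean of 88.7, was not above background.

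ADA, adenosine deaminase, read 304 and 309 with NS, 357 and 412 with F11, and 308 and 285 with F12. The F11 arrays lay above all others, and the F12 arrays lay on both sides of NS replicate 1. ADA was 0.32 above NS on the log2 scale with F11 (95% interval 0.13 to 0.51, adjusted p = 0.107), which did not pass, and its F12 value was -0.05 (adjusted p = 0.884). F12 was lower than F11 (difference -0.37, standard error 0.0817, 95% interval -0.56 to -0.18, adjusted p = 0.0445). The difference did not pass without either NS array (adjusted p = 0.084), without F11 replicate 2 (0.0824), without F12 replicate 1 (0.158) or without F12 replicate 2 (0.282), and the value with F11 passed without F11 replicate 1 (0.43, adjusted p = 0.0339).

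The remaining salvage genes did not pass in any comparison. HPRT1, which recovers hypoxanthine and guanine, read between 1397 and 1599 with an averaged log2 fold change of 0.05, and APRT, which recovers adenine, read between 511 and 574 with 0.06. PNP, purine nucleoside phosphorylase, which like UPP1 cleaves nucleosides, read 394 and 371 with NS, 344 and 389 with F11, and 355 and 354 with F12, an averaged value of -0.08. Thus the cleaving enzymes UPP1 and PNP had averaged values of -0.36 and -0.08, the first passed, and the difference between them was not tested. Among the nucleoside kinases, ADK, adenosine kinase, read 933 and 834 with NS, 749 and 739 with F11, and 834 and 771 with F12, and averaged -0.19 on the log2 scale (adjusted p = 0.364). DCK, the deoxycytidine kinase, read 369 and 447 with NS, 318 and 395 with F11, and 458 and 412 with F12, where the replicates of NS and of F11 were wider apart than the averaged value of -0.05. UCK2, a uridine and cytidine kinase, read from 276 to 381, its isoform UCK1 from 91.8 to 97.9, and the mitochondrial thymidine kinase TK2 from 98.9 to 108. NME1, a nucleoside diphosphate kinase, had log2 fold changes of 0.13 with F11 and 0.03 with F12, and GUK1, guanylate kinase, of -0.08 and 0.01. Whether the NME1 probes distinguish it from its close relative NME2 was not checked.

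**Figure D2:**
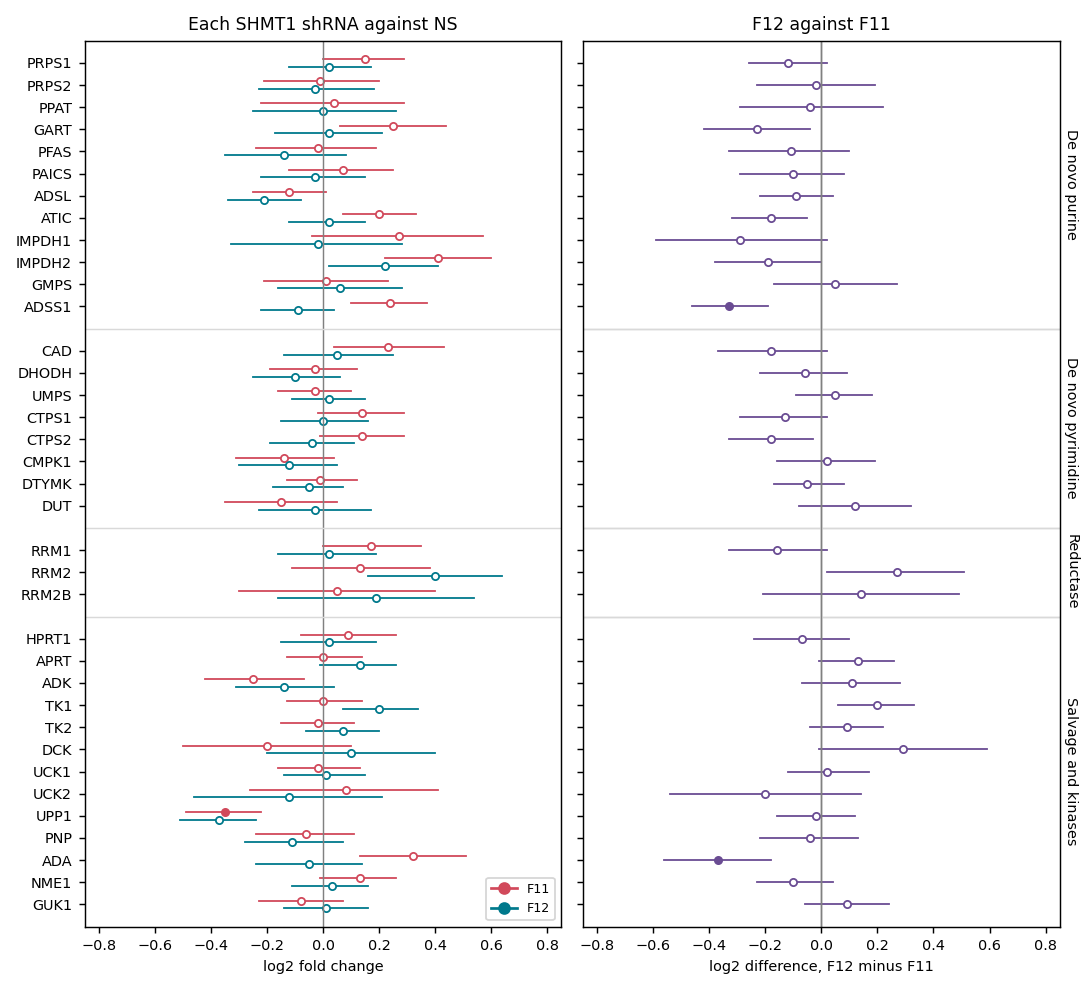
Log2 fold change (points) with its 95% interval (lines) for each measured gene, by class, with F11 and F12 against NS on the left and F12 minus F11 on the right. Filled points passed limma's adjusted p of 0.05: UPP1 with F11 on the left, ADSS1 and ADA on the right.

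The SHMT1 shRNAs were also compared with each other. Between F12 and F11, 2 of 36 genes passed, ADSS1 and ADA, both lower with F12, where 7.58% of all genes were called (4.13% lower and 3.44% higher). At an unadjusted p under 0.05 there were 7 of 36 (19.4%), against 24.2% of all genes. Of these, GART, ATIC, ADSS1, CTPS2 and ADA were lower (13.9%, against 13.1%) and RRM2 and TK1 higher (5.56%, against 11.1%). The median difference was -0.06, beside -0.00 over all genes, and 23 of 36 values were below 0. Values are given by class. In de novo purine synthesis 11 of 12 differences were below 0, GMPS at 0.05 being the exception, with a median of -0.12. In de novo pyrimidine synthesis it was 5 of 8 with a median of -0.06, in the reductase 1 of 3 with a median of 0.14, and in salvage 6 of 13 with a median of 0.02. Over all genes 49.2% of the differences were above 0. These shares are descriptions, and the difference between classes was not tested.

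The order of the arrays is given as a description, without a test. The F12 arrays did not overlap the F11 arrays at 22 of 36 genes (61.1%, against 51.4% of all genes), 14 lower and 8 higher (38.9% and 22.2%, against 26.9% and 24.5%). Those lower with F12 included 6 of the 12 purine genes (PRPS1, GART, ADSL, ATIC, IMPDH2 and ADSS1) and 5 of the 8 pyrimidine genes (CAD, DHODH, CTPS1, CTPS2 and DTYMK), and those higher included TK1, TK2, DCK, ADK and APRT of salvage. Against NS, F11 did not overlap at 20 of 36 (55.6%, against 44.7% of all genes), of which 13 were higher and 7 lower (against 24.4% and 20.3%), and F12 at 13 of 36 (36.1%, against 46.9%), of which 5 were higher and 8 lower (against 23.9% and 22.9%). With 2 arrays in a group such an order is common, and the shares of all genes are the background against which they are read. SHMT1 intensity also differed between the shRNAs, at 316 on average with F11 and 438 with F12, and the part of this in the differences was not tested. The targeting of SHMT1 and any other difference between the F11 and F12 cells cannot be told apart here.

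Of the 36 genes 14 had more than 1 tested probe, with 21 dimmer probes in all. None of the 21 passed the test in any of the comparisons, and their averaged log2 fold changes ranged from -0.13 to 0.09. PAICS had a second bright probe (mean 2142) at 0.08 on average and 0.12 with F11, where its brightest probe had 0.02 and 0.07. GART had a second probe (mean 384) at 0.09 on average and 0.14 with F11, where its brightest probe had 0.14 and 0.25. HPRT1 had a second probe (mean 821) at 0.00.

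Outside the set, 37 of 58 other genes of nucleotide metabolism were measured, and 6 passed in at least 1 comparison. This list too was chosen with earlier results of these data known. On average 2 of 37 were lower, NT5E and XDH, and 0 higher (5.41% lower, beside 0.435% of all genes). With F11 3 were lower (NT5E, XDH and TYMP, 8.11% beside 1.76%) and 1 higher (SLC29A4, 2.7% beside 1.83%), and with F12 NT5E was lower (2.7% beside 0.544%). NT5E, the cell-surface nucleotidase that turns AMP into adenosine, read 282 and 247 with NS, 184 and 170.5 with F11, and 163 and 175 with F12. NT5E was thus lower on every SHMT1 shRNA array than on both NS arrays. It fell by 0.61 on the log2 scale on average (adjusted p = 0.0175), and the values for F11 and F12 were -0.58 and -0.64 (adjusted p = 0.0159 and 0.0242). All 3 NT5E calls were lost when NS 1, NS 2, F12 1 or F12 2 was left out, with adjusted p-values from 0.104 to 0.184 on average, from 0.0503 to 0.0983 for F11 and from 0.0923 to 0.306 for F12.

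XDH, which oxidises hypoxanthine and xanthine to urate, read 229.6 and 233 with NS, 148 and 163 with F11, and 199 and 185 with F12, and was lowest with F11. It fell by 0.42 on the log2 scale on average (adjusted p = 0.0436) and by 0.57 with F11 (adjusted p = 0.00923), and the F12 value was -0.27 (adjusted p = 0.216). Without NS 1, NS 2, F12 1 or F12 2 the averaged XDH value did not pass (adjusted p = 0.167 to 0.345), and that with F11 did not without NS replicate 1 (0.0827) or 2 (0.0822). TYMP, thymidine phosphorylase, which cleaves thymidine as UPP1 cleaves uridine, read 715 and 639.9 with NS, 529 and 488 with F11, and 537 and 503 with F12. The value was -0.41 for F11, which passed (adjusted p = 0.044), and -0.38 for F12, which did not (adjusted p = 0.119), with no overlap between NS and the other arrays, and the F11 value did not pass without NS replicate 1 (0.232), NS replicate 2 (0.101), F11 replicate 2 (0.103) or either F12 array (0.112).

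SLC29A4, a member of the SLC29 family of nucleoside transporters, rose with F11, from 95.2 and 96.9 with NS to 124 and 128. It read 95.2 and 99.3 with F12, and transport was not measured. The rise with F11 was 0.39 on the log2 scale (adjusted p = 0.0177), and F12 differed from F11 by -0.37 (adjusted p = 0.013). The NS and F12 readings lie near the background, so the log2 value is drawn towards 0, and after normexp background correction the rise with F11 was 0.87 (adjusted p = 0.0027). Without NS 1, NS 2, F12 1 or F12 2 the F11 value of SLC29A4 did not pass (adjusted p = 0.061 to 0.131), and the difference did not without F12 replicate 1 (0.128) or 2 (0.0867). Between F12 and F11, 3 of 37 genes passed (8.11%, beside 7.58% of all genes) and all 3 were lower with F12: SLC29A4, the transporter SLC29A2 (-0.35, adjusted p = 0.037) and AK3, a mitochondrial adenylate kinase (-0.39, adjusted p = 0.014). SLC29A2 did not pass without either NS array (0.0622), F11 replicate 1 (0.104), F12 replicate 1 (0.236) or F12 replicate 2 (0.17), and AK3 did not without F12 replicate 1 (0.083) or 2 (0.135). The median log2 fold change of the 37 genes was -0.00 on average, 0.02 with F11 and -0.01 with F12.

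**Figure D3:**
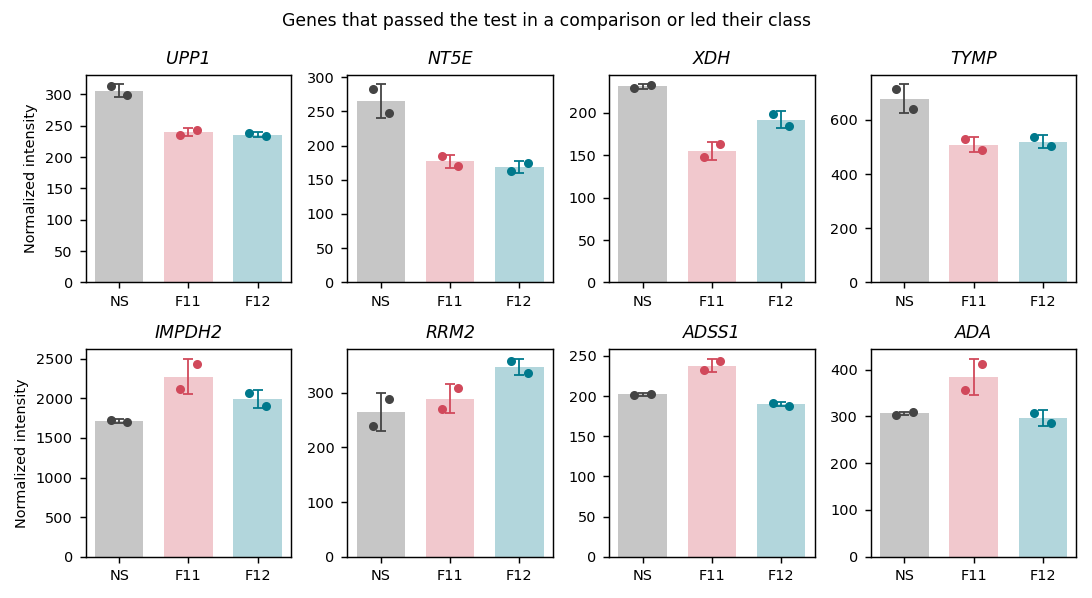
Normalized intensity (linear scale, vertical axis from 0) of 8 genes on the arrays of each group, where points are arrays, bars are group means and error bars are the SD of 2 arrays. UPP1, NT5E, XDH and TYMP are lower on all 4 SHMT1 shRNA arrays than on both NS arrays, IMPDH2 is higher on all 4, RRM2 is highest with F12, and ADSS1 and ADA are highest with F11.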

How the data were processed

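RNA of PEO4 cells with NS, F11 or F12 shRNA was hybridized to 6 Illumina HumanHT-12 V4.0 arrays, 2 in each group, with groups taken from the titles. Scans were handled by the authors in GenomeStudio and quantile-normalized in lumi on the log2 scale, and the deposited values are normalized intensities back on a linear scale. Neither a background subtraction nor the lumi version is stated. The non-normalized table was left out, since its 12 per-sample columns carry names that match no label.

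Intensities were log2-transformed. The background mode was 85.5, and 23019 of 47321 probes exceeded the 95th percentile of background, 91.6, in 2 or more arrays and were tested. Each array had a median of 89.9 and 44.9% of probes above 91.6. Probe names came from the platform annotation, in which 30112 probes had 1 symbol, 8 several and 17201 none, and a gene took its brightest tested probe. limma 3.58.1 under R 4.3.3 (lmFit and eBayes, 3 residual and 4.27 prior degrees of freedom) fitted all 3 groups together, with two-sided p-values, Benjamini-Hochberg adjustment across the tested probes and a threshold of 0.05. Counts of all genes are over 12871 genes. Precision is limited by the number of arrays, and with 2 arrays against 2 a permutation test could not go below p = 0.333.

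The genes and lists were chosen with earlier results of these data known. Full values are given for genes called in any comparison and for the lowest adjusted p of each class in the averaged comparison, and up to 10 other nucleotide genes called in any comparison are named by lowest adjusted p. The fit was tested on simulated data. Alternatives were no filter and a stricter one, normexp background correction with an offset of 16, median centring, the replicate number as a block, an intensity trend with robust estimation, only the compared groups, the 4 SHMT1 shRNA arrays as 1 group, any probe or the mean of a gene's probes, and each array left out. A background threshold set on the linear scale (91.2) was chosen after seeing the data.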

Additional observations from a re-analysis of the deposited data

Results flagged for a closer look

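ADSS1 and ADA were flagged because the SHMT1 shRNAs differed at them by limma's test of the difference itself. They are 2 of 36 genes (5.56%), where 7.58% of all genes were called in this comparison. ADSS1 did not pass with the mean of its probes (-0.17, adjusted p = 0.083), and ADA did not after normexp background correction. ADSS1 was lower with F12 than with F11 by a log2 difference of -0.33 (adjusted p = 0.0212), from means of 238 with F11 and 189.9 with F12 and an NS mean of 202. ADA differed by -0.37 (adjusted p = 0.0445), from means of 384 with F11 and 296 with F12 and an NS mean of 307. In neither gene did F11 or F12 differ from NS by the adjusted p, and the array groups are too small for a test of single outlying arrays.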

How the results depend on the processing

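No called value changed direction under any alternative run, but the small counts of genes past the threshold moved. Among values that were not called, UPP1 between F12 and F11 went from -0.02 to 0.01 without F11 replicate 2, and ADA with F12 from -0.05 to 0.01 without F12 replicate 2. In the averaged comparison 1 of 36 passed, and 0 did after normexp background correction, with the replicate number as a block, or when the F11 and F12 arrays were pooled as 1 group of 4. The range with 1 array left out was 0 to 2. With F11 the count of 1 became 2 with no filter, with an intensity trend and robust estimation and with the mean of a gene's probes, and 0 after normexp, with the replicate block and with only the compared groups, and it ranged from 0 to 2 with 1 array left out. With F12 the count of 0 became 1 with no filter, with only the compared groups, with the mean of probes and with the linear background threshold, with a range of 0 to 1. Between F12 and F11 the count of 2 became 1 after normexp, with the replicate block, with only the compared groups and with the mean of probes, with a range of 0 to 2. UPP1 was the gene gained or lost in the averaged and F12 comparisons, except that IMPDH2 joined it on average without F11 replicate 1. With F11, IMPDH2 was the gene gained at each count of 2, with ADA in place of UPP1 without F11 replicate 1. The stricter filter, median centring and counting any probe left all 4 counts as they were.

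Deviations from group means correlated at 0.457 between NS and F11, -0.254 between NS and F12 and -0.319 between F11 and F12. These values differ in sign, so they do not settle whether the replicate numbers pair the arrays. Leaving out an array leaves its group with 1, which is assumed to vary like the others, and such fits and those of fewer groups hold fewer degrees of freedom. A call lost in such a fit, for UPP1 or any other gene, is therefore not by itself a dependence of that gene on the array left out. A gene near background can change without a visible fold, which limits DHODH, DTYMK, TK2 and UCK1 most.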

Other observations

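Values of some other genes that handle nucleotides, none of which passed limma's test, are given here. Among the nucleotidases other than NT5E, averaged log2 fold changes were -0.02 for NT5C, -0.07 for NT5C1A, -0.01 for NT5C2, -0.12 for NT5C3A, 0.11 for NT5C3B and -0.01 for NT5M. The average for NT5C3A joined 0.03 with F11 and -0.26 with F12, a difference of -0.29 (95% interval -0.48 to -0.10, adjusted p = 0.089). Among the nucleoside diphosphate kinases they were 0.00 for NME2, -0.00 for NME3, 0.07 for NME4 and -0.03 for NME6. PRPSAP1 and PRPSAP2, which bind the synthases of activated ribose phosphate, had 0.06 and 0.13. DGUOK, the mitochondrial deoxyguanosine kinase, read 1799 and 1472 with NS, 1716 and 1443 with F11, and 1289.7 and 1239 with F12, so that both F12 arrays lay below the others, with a log2 fold change of -0.36 with F12 (adjusted p = 0.299) that did not pass. CDA, cytidine deaminase, had -0.14 with each shRNA, and its 4 SHMT1 shRNA arrays (141 to 148) lay below both NS arrays (161 and 157), with an adjusted p of 0.41 on average. These genes were picked after their values were seen.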
